A study of Mus musculus with 3 samples.

Results

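ETS factors are transcription factors that share a winged helix-turn-helix DNA-binding domain and bind sites with a GGAA core. The genes described here are 8 members of that family in the forming finger joint: Erg and its close relative Fli1, Ets1 and Ets2, the PEA3 group (Etv1, Etv4 and Etv5), and Elk3. They were chosen by gene symbol, and all 8 were found among the 23284 symbols that each file lists. Erg is known for its expression in forming joints and articular cartilage and, with Fli1 and Ets1, in endothelium and blood-forming cells. Etv4 and Etv5 are known as targets of FGF signalling in the limb bud, and Elk3 is a ternary complex factor that acts with the serum response factor SRF.

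RNA-seq libraries came from 3 populations of sorted mouse embryonic digit cells on the C57/bl6 background, with 1 library each. Lgr5+ cells, called interzone in the labels, were the GFP-positive cells of Lgr5-eGFPCreERT2/+ forelimb digits at E14.5 (E, embryonic day). The interzone is the condensed layer of cells where a joint will form. Lgr5− cells were sorted as GFP-negative from the same genotype, limb and day. Sox9+ cells were GFP-positive cells of Sox9-eGFP/+ digits at E13.5, and Sox9 is the master factor of cartilage. The sort read a reporter and not a position, the limb of the Sox9+ cells is not named, and how many embryos were pooled is not given in the sources used here. Both Lgr5 populations carry the same knock-in allele, while the Sox9+ cells differ from them in reporter line and in age together, and these cannot be told apart. Beside the interzone label, 12 interzone markers were read, a list chosen with earlier results of these data known and so not an independent check. Of these, 8 had at least 2-fold more RNA in Lgr5+ than in Lgr5− cells and 0 had 2-fold less. Against Sox9+ cells, 6 had at least 2-fold more RNA in Lgr5+ cells and 0 had 2-fold less. Gdf5, the growth factor of the forming joint, had 615 FPKM in Lgr5+ cells, 71.7 FPKM in Lgr5− cells and 59.9 FPKM in Sox9+ cells. FPKM take account of library size and of transcript length, so levels of different genes are compared here per length. Between 11924 and 12002 genes reached 1 FPKM in a library, and the read depth is unknown because the files give no counts. With no replicate of any population there is no error, test or p-value for any difference given here, and what is compared are single libraries.

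Erg was the member that differed most, and it was highest in the Lgr5+ cells. The annotation gives Erg (GRCm38 chromosome 16, 95359169 to 95586593, minus strand) several starts, whose reads are summed in 1 value per gene. The RefSeq table of build GRCm38.p6 holds 3 upstream windows for it, shown here because they are what 1 Erg value cannot separate. Each line gives the 250 bases before a start, 5′ to 3′ on the minus strand, with capitals marking the ETS core GGAA or its reverse complement TTCC. Window 1 is chr16:95586594-95586843, window 2 is chr16:95530366-95530615 and window 3 is chr16:95459349-95459598, and none of these bases lies in an annotated Erg exon.
Erg window 1: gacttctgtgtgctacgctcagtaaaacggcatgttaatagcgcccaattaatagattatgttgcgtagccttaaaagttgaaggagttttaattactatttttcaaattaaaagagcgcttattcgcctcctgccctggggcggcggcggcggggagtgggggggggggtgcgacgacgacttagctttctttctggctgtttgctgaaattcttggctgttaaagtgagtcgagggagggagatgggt
Erg window 2: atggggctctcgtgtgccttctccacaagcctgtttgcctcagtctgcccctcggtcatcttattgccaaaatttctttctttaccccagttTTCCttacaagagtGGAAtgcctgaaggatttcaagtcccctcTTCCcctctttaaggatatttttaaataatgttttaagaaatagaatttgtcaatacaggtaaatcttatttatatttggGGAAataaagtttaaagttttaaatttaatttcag
Erg window 3: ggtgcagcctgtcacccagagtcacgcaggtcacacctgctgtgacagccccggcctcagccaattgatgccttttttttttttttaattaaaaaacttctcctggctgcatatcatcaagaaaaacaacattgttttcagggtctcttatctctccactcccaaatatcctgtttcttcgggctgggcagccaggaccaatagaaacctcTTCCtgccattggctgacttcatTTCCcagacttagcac
The core occurred 0 times in window 1, 4 times in window 2 and 2 times in window 3, counted on both strands. Of all 32851 windows of this length in the table, 93.4% held at least 1 core, with a median of 3. The longer motif CCGGAAG, which contains the core, was in none of the 3 windows and in 6.91% of all windows, on either strand. These matches describe letters and not binding. The table also held windows for Ets2, Etv1, Etv5 and Elk3, so 5 of 8 members matched.

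Erg had 25.2 FPKM in Lgr5+ cells, 9.99 FPKM in Lgr5− cells and 10.3 FPKM in Sox9+ cells. The Lgr5+ library was thus apart from the other two, which were close to each other. As the ratio of FPKM + 1, which is the fold used throughout, Erg was 2.38-fold higher in Lgr5+ than in Lgr5− cells (log2 ratio 1.25) and 2.31-fold higher than in Sox9+ cells (log2 ratio 1.21). Among genes of at least 1 FPKM in the higher library of a pair, called measured here, 97.7% had a lower log2 ratio than Erg in the first comparison and 97.3% in the second. Between Lgr5− and Sox9+ cells the Erg log2 ratio was −0.05, and its sign turned with the scaling (−0.05 to 0.06). Erg ranked second among the 8 members by level in Lgr5+ cells, behind Ets2, but took the fifth place in Lgr5− cells and the sixth in Sox9+ cells.

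**Figure D1:**
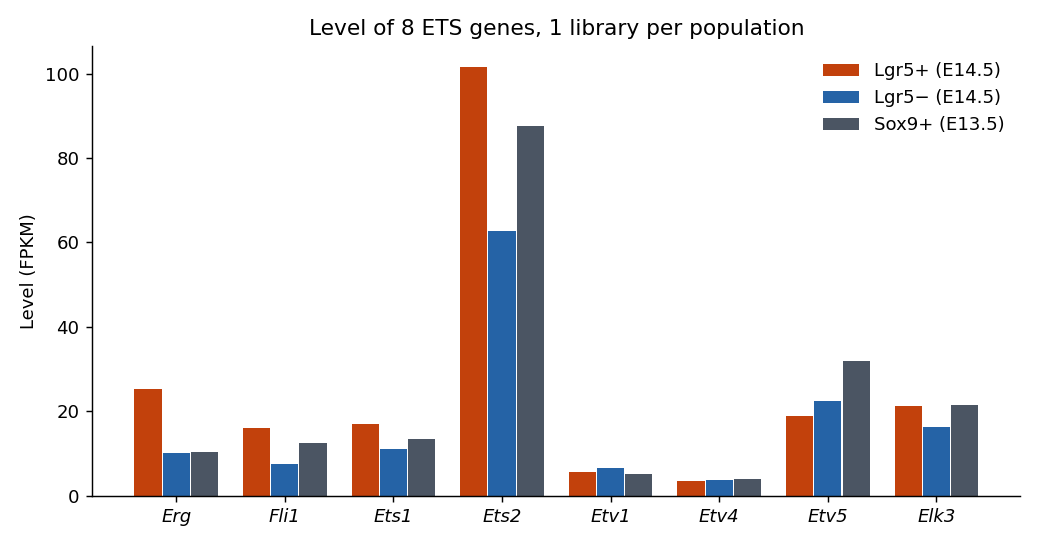
Bars give the level in FPKM (vertical axis, from 0) of the 8 ETS genes in the Lgr5+, Lgr5− and Sox9+ libraries, 1 library each and so without error bars. Erg stands at 25.2 FPKM in Lgr5+ cells against 9.99 and 10.3 FPKM in the other libraries, and Ets2 is the highest gene in all 3.

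Fli1, the closest relative of Erg in this set (chromosome 9, 32422204 to 32542861, minus strand), had 16.0 FPKM in Lgr5+ cells, 7.49 FPKM in Lgr5− cells and 12.4 FPKM in Sox9+ cells. Its Lgr5+ level lay exactly at the threshold of 2-fold over Lgr5− cells and 1.27-fold over Sox9+ cells. Unlike Erg, Fli1 was 1.58-fold lower in Lgr5− than in Sox9+ cells, so its 3 levels were spread out where those of Erg fell into a high one and a low pair. The ratio of Erg to Fli1 FPKM was 1.58 in Lgr5+ cells, 1.33 in Lgr5− cells and 0.834 in Sox9+ cells. The Fli1 call rests on the scaling, since the log2 ratio of Lgr5+ over Lgr5− cells was 0.88 with upper-quartile scaling and 0.92 with the median of ratios.

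Ets1 and Ets2 encode the founding pair of the family, which are activated by ERK phosphorylation. Ets1 (chromosome 9, 32636221 to 32757820, plus strand) had 17.0 FPKM in Lgr5+ cells, 11.1 FPKM in Lgr5− cells and 13.4 FPKM in Sox9+ cells. Ets2 (chromosome 16, 95702075 to 95721051, plus strand) had 101 FPKM in Lgr5+ cells, 62.6 FPKM in Lgr5− cells and 87.5 FPKM in Sox9+ cells. Both had the order Lgr5+, Sox9+, Lgr5−, as had Fli1, and in both the whole span was under 2-fold, at 1.48-fold for Ets1 and 1.61-fold for Ets2. Ets2 alone gave 48.5% of the summed FPKM of the 8 members in Lgr5+ cells, 44.7% in Lgr5− cells and 47.0% in Sox9+ cells. It lay above 93.1% of genes of at least 1 FPKM in the Lgr5+ library.

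The PEA3 group showed no such difference in favour of Lgr5+ cells. Etv5 (chromosome 16, 22381309 to 22439719, minus strand) was its most abundant gene, at 18.9 FPKM in Lgr5+ cells, 22.5 FPKM in Lgr5− cells and 31.9 FPKM in Sox9+ cells. Sox9+ cells had the highest level and Lgr5+ cells the lowest, and Etv5 was 1.65-fold lower in Lgr5+ than in Sox9+ cells and 1.40-fold lower in Lgr5− than in Sox9+ cells. Etv4 (chromosome 11, 101769742 to 101785371, minus strand) had the same order on a small span, with 3.47 FPKM in Lgr5+ cells, 3.61 FPKM in Lgr5− cells and 3.97 FPKM in Sox9+ cells. Etv1 (chromosome 12, 38779380 to 38870484, plus strand) had 5.71 FPKM in Lgr5+ cells, 6.53 FPKM in Lgr5− cells and 5.12 FPKM in Sox9+ cells, and was the only member highest in Lgr5− cells. The levels of Etv1 and Etv4 each spanned less than 1.25-fold, and the depth behind such low values is unknown.

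Elk3 (chromosome 10, 93247414 to 93311135, minus strand) had 21.3 FPKM in Lgr5+ cells, 16.3 FPKM in Lgr5− cells and 21.4 FPKM in Sox9+ cells. The Lgr5+ and Sox9+ levels were nearly equal, with a log2 ratio of −0.01 whose sign turned with the scaling (−0.08 to 0.14). Exons of Elk3 and of Cdk17 on the opposite strand overlap by 316 bases. The library kit is not stated to keep the strand, so some reads of these genes may not be told apart. Cdk17 stood at 25.3 FPKM in Lgr5+ cells, 17.3 FPKM in Lgr5− cells and 19.6 FPKM in Sox9+ cells.

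Counted over the 8 members, which all passed the 1 FPKM minimum, 2 were at least 2-fold higher in Lgr5+ than in Lgr5− cells (Erg and, at the threshold, Fli1) and none 2-fold lower. Of all 12438 genes measured in that pair, 3.64% were at least 2-fold higher and 1.89% at least 2-fold lower. The members' median log2 ratio was 0.47, beside 0.08 for all measured genes. Of the 8 members, 5 were above 0 and 3, the PEA3 group, below it, where 59.4% of all measured genes were above 0. Against Sox9+ cells, 1 member, Erg, was at least 2-fold higher in Lgr5+ cells, where 4.33% of 12492 measured genes were. None was 2-fold lower, where 3.96% of genes were. The members' median was 0.17, beside 0.06 for all genes. Between Lgr5− and Sox9+ cells no member differed 2-fold, where 3.08% of 12482 measured genes were at least 2-fold higher and 4.94% at least 2-fold lower. There 49.4% of all measured genes had a log2 ratio above 0. Of the 8 members, 7 had a log2 ratio below 0, with a median of −0.31 beside −0.01 for all genes, and Etv1 was the exception at 0.30. For Erg, 1 of these 7, that sign turned with the scaling, as given above. After rescaling to TPM, the higher and lower counts over all genes were 981 and 533 in place of 541 and 495 for Lgr5+ over Sox9+ cells. For Lgr5− over Sox9+ cells they were 706 and 644 in place of 384 and 617. TPM values were larger throughout while the pseudocount and minimum stayed at 1, so these counts reflect more than library scaling. The 3 comparisons share libraries, so their values are not independent of each other.

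**Figure D2:**
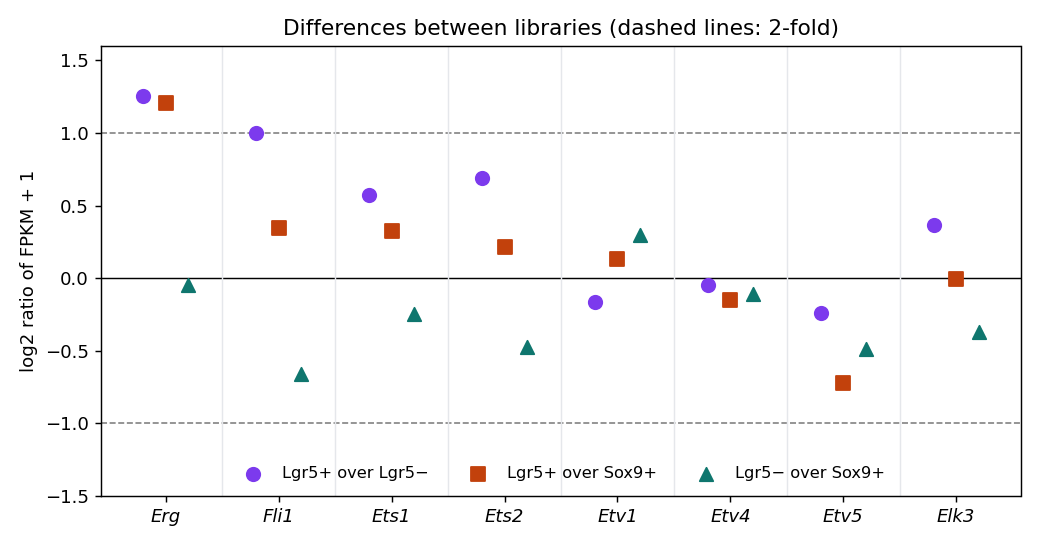
Points give the log2 ratio of FPKM + 1 (vertical axis) of each ETS gene for Lgr5+ over Lgr5−, Lgr5+ over Sox9+ and Lgr5− over Sox9+ cells, and dashed lines mark 2-fold. Erg lies above the upper line in both comparisons of Lgr5+ cells, at 1.25 and 1.21, Fli1 lies on it in the first, and no point lies below the lower line.

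The members also differed in how alike their patterns were. The pattern of a gene was taken as its log2(FPKM + 1) values centred on their mean over the 3 libraries, and likeness as the Euclidean distance between patterns. The most alike pair was Ets1 and Ets2, at a distance of 0.16, followed by Fli1 and Ets2 at 0.22. From Erg, Fli1 lay at 0.63, Ets1 at 0.66, Ets2 at 0.71 and Elk3 at 0.89, while Etv1 at 1.05, Etv4 at 1.09 and Etv5 at 1.43 were farther. No ETS member was among the genes nearest to Erg: of 7032 genes of at least 10 FPKM in their highest library, 481 lay nearer to it than Fli1. The 5 nearest were Spsb4 (distance 0.03), Uxs1 (0.07), Pdgfrl (0.08), Cltb (0.10) and Robo1 (0.10). Robo1, a receptor for Slit guidance proteins, stood at 76.0 FPKM in Lgr5+ cells, 31.5 FPKM in Lgr5− cells and 35.5 FPKM in Sox9+ cells. With 3 libraries such likeness is easily met, and 44 genes lay within 0.25 of Erg.

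Erg and Ets2 are neighbours on chromosome 16, separated by 115 kb without another annotated gene, and Fli1 and Ets1 are neighbours on chromosome 9, separated by 93.4 kb. All 4 genes were highest in Lgr5+ cells and, except for Erg under some scalings, lowest in Lgr5− cells. The Lgr5+ over Lgr5− fold was 2.38 for Erg and 1.61 for Ets2, and 2 for Fli1 and 1.48 for Ets1. The next listed protein-coding gene on the Erg side, looked up after these values were seen, was the potassium channel gene Kcnj15, 58.9 kb away. It stood at 9.02 FPKM in Lgr5+ cells, 0.47 FPKM in Lgr5− cells and 0.40 FPKM in Sox9+ cells, and was 6.82-fold higher in Lgr5+ than in Lgr5− cells. On the Ets2 side, Psmg1, a proteasome assembly factor gene 259 kb away, stood at 22.2 FPKM in Lgr5+ cells, 25.9 FPKM in Lgr5− cells and 24.1 FPKM in Sox9+ cells. For the other pair, Kcnj1, 23.0 kb away on the Fli1 side, was listed at 0 in all 3 libraries. On the Ets1 side the next such gene, Kirrel3, lay 1728 kb away, much farther than the others. It was 2.58-fold lower in Lgr5+ than in Lgr5− cells, a direction opposite to that of Kcnj15. Kirrel3 stood at 5.74 FPKM in Lgr5+ cells, 16.4 FPKM in Lgr5− cells and 5.36 FPKM in Sox9+ cells.

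Because Erg, Fli1 and Ets1 are also expressed in blood vessels, 20 endothelial markers were read beside them. Their summed level was 33.9 FPKM in Lgr5+ cells, 44.4 FPKM in Lgr5− cells and 26.7 FPKM in Sox9+ cells. Egfl7, Plvap and Eng gave the most to the Lgr5+ sum, at 7.05, 6.01 and 5.44 FPKM. Of the 20 markers, 7 were under 1 FPKM in every library. Of the 13 measured in the pair of Lgr5 libraries, none differed 2-fold and 10 were lower in Lgr5+ cells, with a median log2 ratio of −0.45. The 3 that were higher in Lgr5+ cells were Kdr, at 1.64 against 1.28 FPKM in Lgr5− cells, Esam and Eng. Pecam1 and Cdh5 were near or under the 1 FPKM minimum, and neither was listed at 0. Pecam1 stood at 1.22 FPKM in Lgr5+ cells, 2.01 FPKM in Lgr5− cells and 0.72 FPKM in Sox9+ cells, and Cdh5, the cadherin of endothelial junctions, at 0.72, 0.97 and 0.39 FPKM in the same order. Between the Lgr5 libraries, endothelial markers were therefore mostly lower where Erg, Fli1 and Ets1 were higher. Against Sox9+ cells they moved with these genes, with 9 of 11 measured markers higher in Lgr5+ cells, none by 2-fold, and a median of 0.36. In Lgr5− against Sox9+ cells, 12 of 13 were higher in Lgr5− cells, 2 of them by 2-fold (Icam2 and Plvap), with a median of 0.71, whereas Fli1 and Ets1 were lower. Erg FPKM per summed endothelial FPKM was 0.744 in Lgr5+ cells, 0.225 in Lgr5− cells and 0.388 in Sox9+ cells. The same quotient for Fli1 was 0.472 in Lgr5+ cells, 0.169 in Lgr5− cells and 0.465 in Sox9+ cells, so for Fli1 the Lgr5+ and Sox9+ libraries stood close together. In sorted bulk samples, fewer cells of a type and less RNA per cell cannot be told apart.

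**Figure D3:**
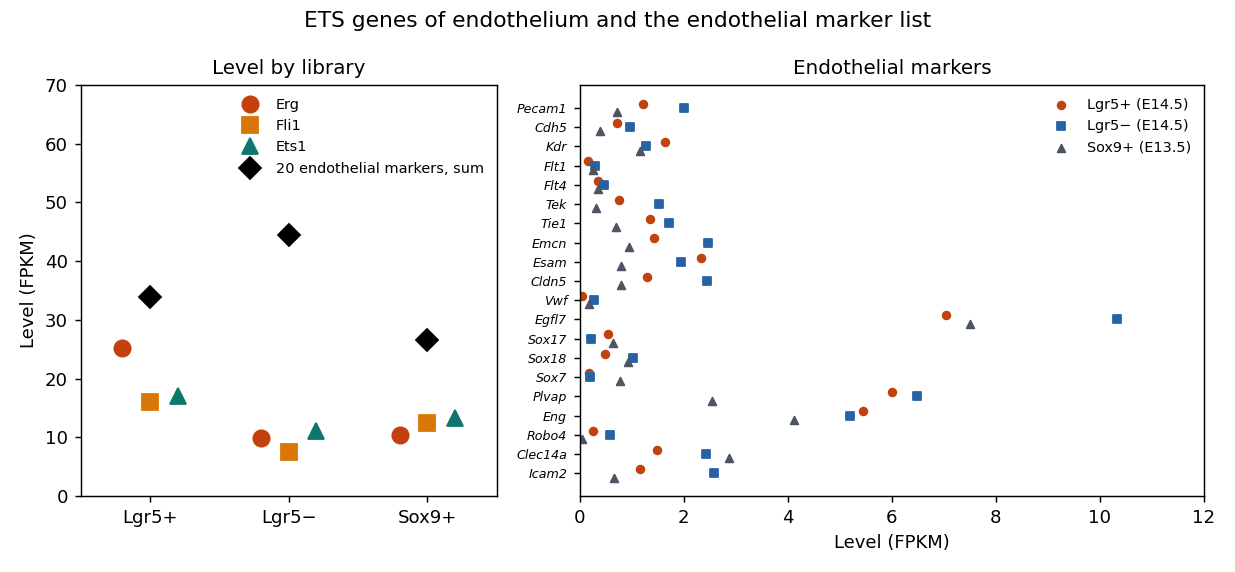
The left panel gives the FPKM (vertical axis, from 0) of Erg, Fli1, Ets1 and the sum of 20 endothelial markers in each library, and the right panel gives each marker's FPKM (horizontal axis) in the 3 libraries. The marker sum is 33.9 FPKM in Lgr5+ cells against 44.4 FPKM in Lgr5− cells, while Erg is 25.2 against 9.99 FPKM.

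Markers of other cells also differed between the libraries. Summed muscle markers stood at 109 FPKM in Lgr5+ cells, 28.4 FPKM in Lgr5− cells and 20.2 FPKM in Sox9+ cells, with 9 of 11 measured genes at least 2-fold higher in Lgr5+ than in Lgr5− cells. Summed macrophage and leukocyte markers stood at 103 FPKM in Lgr5+ cells, 64.1 FPKM in Lgr5− cells and 22.2 FPKM in Sox9+ cells, and 3 of 12 measured genes, C1qa, C1qb and C1qc, were 2-fold higher in Lgr5+ than in Lgr5− cells. Both sums were thus highest in Lgr5+ cells, as was Erg, and the muscle sum, like Erg, was lower by a wide margin in both other libraries. Of the platelet and megakaryocyte markers, read because Fli1 acts in that lineage, 6 of 8 were under 1 FPKM in every library. The 2 measured ones, Pf4 and Gp1bb, ran in opposite orders. Pf4 fell from 8.57 FPKM in Lgr5+ cells to 3.34 FPKM in Lgr5− cells and 1.69 FPKM in Sox9+ cells. Gp1bb rose from 3.56 FPKM in Lgr5+ cells to 6.6 FPKM in Lgr5− cells and 10.47 FPKM in Sox9+ cells. The list summed to 13.28 FPKM for Lgr5+, 11.03 FPKM for Lgr5− and 13.08 FPKM for Sox9+ cells, so it was not clearly highest in Lgr5+ cells. Summed epidermal markers stood at 67.4 FPKM in Lgr5+ cells, 28.7 FPKM in Lgr5− cells and 68.1 FPKM in Sox9+ cells, with 6 of 11 at least 2-fold higher in Lgr5+ than in Lgr5− cells. Summed red blood cell markers stood at 158 FPKM in Lgr5+ cells, 4015 FPKM in Lgr5− cells and 151 FPKM in Sox9+ cells, with 9 of 10 at least 2-fold lower in Lgr5+ than in Lgr5− cells. Against Sox9+ cells, 4 of 10 epidermal markers were at least 2-fold higher in Lgr5+ cells, among them Krtdap (9.02 against 0.62 FPKM) and Krt5 (12.6 against 4.61 FPKM), and 2 were lower, Krt18 (4.93 against 26.9 FPKM) and Krt8 (0.77 against 5.32 FPKM). Krtdap and Krt5 were thus highest in Lgr5+ cells, as was Erg, while the red blood cell sum was high in Lgr5− cells. Neuronal markers had 3 of 6 measured genes at least 2-fold lower in Lgr5+ than in Lgr5− cells, Runx3, Stmn2 and Tubb3. Runx3 is also in the list of chondrocyte maturation genes below, so its level is not particular to neurons. Schwann cell markers had 1 of 6 at least 2-fold higher in Lgr5+ than in Lgr5− cells. Tendon markers had 6 of 8 measured genes at least 2-fold higher in Lgr5+ than in Lgr5− cells, and 7 of 8 higher and 1, Egr1, lower in Lgr5+ than in Sox9+ cells, with a median log2 ratio of 2.18. The tendon sum was 1215 FPKM in Lgr5+ cells, 873 FPKM in Lgr5− cells and 1316 FPKM in Sox9+ cells, of which Egr1, also an immediate early gene, made up 603 FPKM, 669.5 FPKM and 1221 FPKM in the same order. Without Egr1, left out after its values were seen, it was 612 FPKM in Lgr5+ cells, 204 FPKM in Lgr5− cells and 94.5 FPKM in Sox9+ cells, highest in the library where Erg was. The part of any of these cells, endothelium included, in the ETS levels was not tested.

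Joint genes were read next, since Erg is known from the forming joint. The list of 9 joint and articular genes was chosen, like the interzone list, with earlier results of these data known. It shares Gdf5, Col22a1 and Wnt9a with that list and is not an independent check. Of the 9, 5 were at least 2-fold higher in Lgr5+ than in Lgr5− cells and none 2-fold lower, with a median log2 ratio of 1.02. Cilp, an articular cartilage matrix protein gene, Gdf5, Col22a1 and Pthlh, which encodes a secreted inhibitor of chondrocyte maturation, had log2 ratios of 5.08, 3.08, 2.52 and 2.09, beside 1.25 for Erg. Against Sox9+ cells, 5 of the 9 were at least 2-fold higher in Lgr5+ cells and 1 was lower, the tenascin gene Tnc, at 39.4 FPKM in Lgr5+ cells against 82.0 FPKM in Sox9+ cells, with a median of 1.19. Prg4, the gene of the joint lubricant lubricin, was low in all libraries, at 1.19 FPKM in Lgr5+ cells, 1.14 FPKM in Lgr5− cells and 2.36 FPKM in Sox9+ cells. Of 10 measured genes of chondrocyte maturation, 4 were at least 2-fold lower in Lgr5+ than in Lgr5− cells and none 2-fold higher, with a median of −0.88. These were Runx3, Runx2, Sp7 and Alpl, with log2 ratios of −2.08, −1.92, −1.81 and −1.49. Against Sox9+ cells, 9 of 11 maturation genes were at least 2-fold lower in Lgr5+ cells. Of 11 cartilage genes, 4 were at least 2-fold higher and 2 lower in Lgr5+ than in Lgr5− cells. Against Sox9+ cells, where Erg was higher in Lgr5+ cells, 7 were at least 2-fold lower in Lgr5+ cells and none 2-fold higher. The other 4 were within 2-fold, with Sox9, Sox5 and Sox6 higher in Lgr5+ cells and Col9a2 lower. Sox9 itself stood at 332 FPKM in Lgr5+ cells, 147 FPKM in Lgr5− cells and 255 FPKM in Sox9+ cells.

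The PEA3 group was read beside the ERK pathway, whose activation by FGF receptors induces Etv4, Etv5 and feedback inhibitors of the same pathway. Of 13 measured feedback and output genes, 5 were at least 2-fold lower in Lgr5+ than in Sox9+ cells and none 2-fold higher, with a median log2 ratio of −0.38. The ERK phosphatase genes Dusp5, Dusp6 and Dusp4 and the early response gene Phlda1 had the largest of these, at −2.01, −1.83, −1.78 and −1.67, beside −0.72 for Etv5 and −0.15 for Etv4. The SRF-linked immediate early genes, described below, were also mostly lower in this pair, with a median of −0.64. What lies behind either shift was not tested. Dusp6 stood at 45.4 FPKM in Lgr5+ cells, 43.3 FPKM in Lgr5− cells and 165 FPKM in Sox9+ cells. As with Etv5, its highest level was that of the Sox9+ library. Between Lgr5− and Sox9+ cells, 3 of 13 were at least 2-fold lower (Phlda1, Dusp5 and Dusp6) and 2 at least 2-fold higher, among them Il17rd, with a median of −0.76. Between the 2 Lgr5 libraries, 2 of 13 were at least 2-fold lower in Lgr5+ cells, Il17rd and Spred2, both inhibitors of FGF or ERK signalling, and the median was 0.07.

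**Figure D4:**
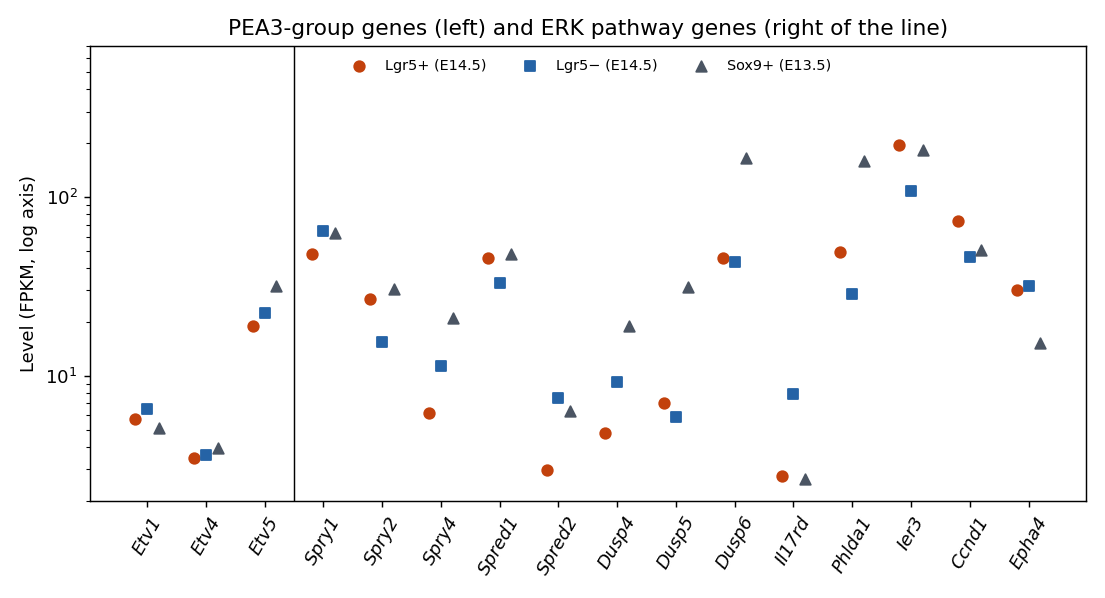
Points give the level in FPKM (vertical log axis) of the PEA3-group genes Etv1, Etv4 and Etv5, left of the line, and of the 13 measured ERK pathway genes, right of it, in the 3 libraries. Etv5 is highest in Sox9+ cells at 31.9 FPKM, as is Dusp6 at 165 FPKM, and Etv1 and Etv4 each differ little between the libraries.

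FGF ligand and receptor genes went both ways. Of 11 measured, 1 was at least 2-fold higher in Lgr5+ than in Lgr5− cells, the receptor gene Fgfr2 at 145.3 FPKM in Lgr5+ cells against 56.7 FPKM in Lgr5− cells, and 2 were 2-fold lower, the ligand genes Fgf10 and Fgf2, with a median of 0.17. Against Sox9+ cells, Fgf18 (48.4 FPKM in Lgr5+ cells against 15.1 FPKM) and Fgfr2 were at least 2-fold higher in Lgr5+ cells and Fgf7 and Fgfr3 2-fold lower, with a median of −0.10. Between Lgr5− and Sox9+ cells, Fgf9 and Fgf10 were at least 2-fold higher in Lgr5− cells and Fgfr3 and Fgfrl1 2-fold lower, with a median of −0.31. Fgf8 and Fgf4, ligand genes of the limb's apical ridge, were listed at 0 in both Lgr5 libraries, and in Sox9+ cells Fgf8 stood at 0.32 FPKM and Fgf4 was listed at 0.

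Elk3 acts beside SRF, whose gene and cofactor genes differed little. None of 5 measured genes (Srf, Mkl1, Mkl2, Elk1 and Elk4) differed 2-fold in any pair. Srf stood at 7.58 FPKM in Lgr5+ cells, 10.4 FPKM in Lgr5− cells and 13.7 FPKM in Sox9+ cells. Of 9 SRF-linked immediate early genes, all had log2 ratios below 0 in Lgr5+ against Lgr5− cells but none was 2-fold lower, with a median of −0.26, whereas Elk3 was at 0.37. In Lgr5+ against Sox9+ cells 3 were at least 2-fold lower, Cyr61, Egr3 and Egr1, at log2 ratios of −2.29, −1.24 and −1.02, and in Lgr5− against Sox9+ cells 1 was, Cyr61 at −2.06. Such genes also respond to tissue digestion, and its part in these values was not tested. Among 12 genes for kinases, ubiquitin ligase components and adaptors that act on or upstream of ETS proteins, none differed 2-fold between the Lgr5 libraries. Rfwd2, the gene of the COP1 ubiquitin ligase that degrades PEA3-group proteins, stood at 16.2 FPKM in Lgr5+ cells, 15.8 FPKM in Lgr5− cells and 13.53 FPKM in Sox9+ cells, and Spop, the gene of an adaptor that targets ERG in human cells, at 67.7, 51.6 and 56.0 FPKM in the same order. The pseudokinase genes Trib1 and Trib2 were 2-fold lower in Lgr5+ than in Sox9+ cells, at log2 ratios of −1.02 and −1.66, and Trib1 was so in Lgr5− cells, at −1.11.

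The rest of the ETS family gave a background for the 8 genes. The files list 18 other family genes, of which 11 reached 1 FPKM in a library, and all 11 were within 2-fold between Lgr5+ and Lgr5− cells, with a median log2 ratio of 0.15. The 8 members held 69.7% of the summed FPKM of all 26 family genes in Lgr5+ cells, 64.0% in Lgr5− cells and 69.2% in Sox9+ cells. Elf2 was the most abundant of the others, at 26.1 FPKM in Lgr5+ cells, 17.7 FPKM in Lgr5− cells and 19.2 FPKM in Sox9+ cells. The repressor genes Etv6 (10.9, 10.6 and 10.3 FPKM in Lgr5+, Lgr5− and Sox9+ cells) and Erf (3.53, 3.09 and 3.29 FPKM in the same order) were nearly level. Elf3, an epithelial factor gene, stood at 4.71 FPKM in Lgr5+ cells, 2.37 FPKM in Lgr5− cells and 3.03 FPKM in Sox9+ cells. Spi1, which encodes the myeloid factor PU.1 and is listed under its older symbol Sfpi1, was the one family gene outside the members that differed 2-fold, at 2.29 FPKM in Lgr5+ cells, 2.41 FPKM in Lgr5− cells and 0.29 FPKM in Sox9+ cells. The summed macrophage and leukocyte markers given above were likewise lowest in Sox9+ cells. Elf5 and Spic were listed at 0 in all 3 libraries.

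**Figure D5:**
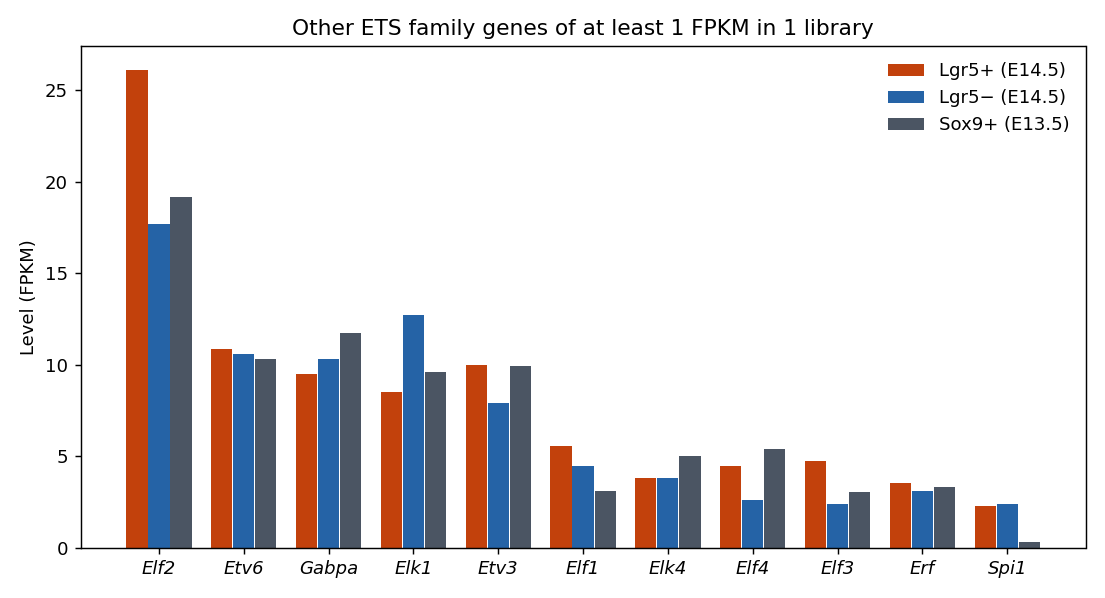
Bars give the level in FPKM (vertical axis, from 0) of the 11 other ETS family genes of at least 1 FPKM in any library, ordered by mean level, in the Lgr5+, Lgr5− and Sox9+ libraries. Elf2 is highest at 26.1 FPKM in Lgr5+ cells, and Spi1 stands at 2.29 and 2.41 FPKM in the Lgr5 libraries against 0.29 FPKM in Sox9+ cells.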

How the data were processed

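Per the labels' protocols, digits were digested for 20 min, cells were sorted by GFP, and 10 ng of RNA went into each SMARTer low-input cDNA library. The submitters' processing notes name HISAT2 and the build mm10 (GRCm38). The counter, annotation, depth and strand setting are not given in these sources. The deposited values are FPKM per gene symbol with 2 decimals, computed by the authors for 1 library per population. FPKM are shares of a library, so the most abundant RNAs can move every other value, and amplification from low input adds noise to low genes.

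Differences were computed with pandas 2.3.3 and numpy 2.4.6 in Python 3.11.15 as log2 ratios of FPKM + 1, a pseudocount that understates the change of low genes. A gene was measured at 1 FPKM or more in the higher library of a pair and called at 2-fold. Single libraries allow no test. The calling code was tried on simulated data whose changes were all larger than 2-fold, with counting noise alone at an assumed depth. That trial cannot say how reliable calls near 2-fold are here, and it held no amplification noise. In all, 9 alternatives of pseudocount, minimum and scaling were tried. Positions come from GENCODE M21 and promoter windows from RefSeq, both on GRCm38. The members, gene lists, thresholds and alternatives were chosen with earlier results of these data known. All 8 members are described, list genes were named at 2-fold or more with at most 4 per list and pair, and the 5 genes nearest to Erg were named. Further genes were named where a result touched them, after their values were seen. Symbols were matched through RefSeq synonyms, and Etv3l had no match.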

Additional observations from a re-analysis of the deposited data

How the results depend on the processing

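The 9 alternatives changed few values of the ETS genes. Those that changed only the minimum could not alter a gene's ratio, only whether it was measured. The Erg log2 ratio of Lgr5+ over Lgr5− cells stayed between 1.01 and 1.33, above 2-fold in each. That of Lgr5+ over Sox9+ cells lay between 0.98 and 1.39, and fell short of 2-fold only with a pseudocount of 5, at 0.98, which left 0 members 2-fold higher in that pair. Fli1 fell short of 2-fold in Lgr5+ over Lgr5− cells with a pseudocount of 5, upper-quartile scaling, the median of ratios, quantile normalization and the sum without the 100 most abundant genes, each leaving 1 member 2-fold higher, and its log2 ratio ranged from 0.75 to 1.08. A larger pseudocount shrinks ratios by construction. Upper-quartile scaling, the median of ratios and the sum without the top genes each use a single factor per library and lowered Lgr5+ over Lgr5− ratios together. TPM also uses a single factor per library but raised that of Fli1, to 1.07. It made all values larger while the pseudocount and the minimum stayed at 1, so both weighed less. The TPM setting is therefore not a change of library scaling alone. For quantile normalization the cause was not tested. No member was 2-fold lower in any pair under any alternative. Upper-quartile scaling moved the median log2 ratio of all genes in Lgr5+ over Lgr5− cells to −0.04, beside 0.08 as deposited, and TPM moved it to 0.21, beside 0.06, in Lgr5+ over Sox9+ cells and to 0.11, beside −0.01, in Lgr5− over Sox9+ cells. With a minimum of 10 FPKM, Etv1 and Etv4 were not measured. Counts over all genes moved more than 1.5 times in 21 of 54 cases. For Lgr5+ over Lgr5− cells the counts were 694 higher and 458 lower with a pseudocount of 0.1, 202 and 81 with 5, 242 and 115 with the 10 FPKM minimum, and 616 and 355 as TPM. For Lgr5+ over Sox9+ cells they were 900 and 785, 193 and 193, 273 and 257, and 981 and 533 in the same order. For Lgr5− over Sox9+ cells they were 721 and 958, 139 and 273, 180 and 369, and 706 and 644. Of 470 list medians, 26 changed their side of 2-fold and none changed sign at 2-fold. No paired analysis was possible because each population has 1 library, and none could be left out.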
